A study of Mus musculus with 12 samples.

Results

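The genes described here are 10 members of the early transcriptional response to gonadotropin: the orphan nuclear receptors Nr4a1, Nr4a2 and Nr4a3, the zinc finger factors Egr1, Egr2 and Egr3, the cAMP response factors Crem and Creb1, and the early genes Zfp36 and Ier3. They were taken by gene symbol from the 18193 genes that had a probe set annotated to that gene alone. The 10 genes had 27 such probe sets, and each gene was read from the one with the highest mean over the 12 arrays. Transcript levels came from preovulatory granulosa cells, the hormone-producing cells that line the antral follicle, cut from ovary sections of 3-week-old mice by laser capture. Mice were wild type (WT) or bERKO, a line that lacks estrogen receptor beta, the product of Esr2; the labels name no allele. All mice had been primed with PMSG, an equine gonadotropin used in place of follicle-stimulating hormone to grow follicles. The 4 groups, each with 3 arrays, were WT at 48 h after PMSG, bERKO at 48 h after PMSG, WT at 48 h after PMSG and 4 h after hCG, and bERKO at 48 h after PMSG and 4 h after hCG. hCG is human chorionic gonadotropin, which acts on the receptor for luteinizing hormone (LH) and starts ovulation. By their titles the arrays are biological replicates, but no label says how many mice went into one.

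LH receptor signalling raises cAMP in granulosa cells, and protein kinase A then phosphorylates CREB1 bound to cAMP response elements. Genes with such elements, among them the NR4A receptors and CREM, are transcribed without new protein synthesis and are therefore called immediate early genes. EGR factors are induced by growth factor and MAP kinase signalling through serum response elements, and several of them and the NR4A receptors regulate later genes of ovulation and steroid synthesis.

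Upstream sequence was available for 7 of the 10 genes in RefSeq promoter windows on GRCm38.p6, and short stretches are shown because they hold the letters through which cAMP, serum and EGR signals are known to act. The 250 bases before each annotated start were searched on both strands for the full cAMP response element (CRE) TGACGTCA, its half-site TGACG, which the full element contains, the EGR site GCGGGGGCG, the NR4A monomer site (NBRE) AAAGGTCA and the CArG box of serum response elements. Nr4a1, Nr4a2 and Nr4a3 each held 4 CRE half-sites; 17.8% of 32851 promoter windows held at least 1 and 0.137% held 4 or more. Egr2 had 5 annotated starts, of which 3 had 2 half-sites and 4 had a CArG box, a motif found in 1.47% of windows. The windows of these 3 starts overlap and share the same 2 half-sites and the same CArG box. Zfp36 had a CArG box and an EGR site, and Nr4a1 and Creb1 had 1 EGR site each (2.57% of windows). None of the 7 genes had the full CRE (1.55% of windows) or the NBRE (1.34%) in this window, and Ier3 had none of the motifs. In the stretches that follow, each read 5′ to 3′ on the strand of the gene, capitals mark the half-sites, EGR sites and CArG boxes in either orientation.
Nr4a1, chr15:101266775-101266804, plus strand, 71 to 42 bases before the start: tgCGTCAgtggCGCCCCCGCccctctccat
Nr4a2, chr2:57124104-57124153, minus strand, 150 to 101 bases before the start: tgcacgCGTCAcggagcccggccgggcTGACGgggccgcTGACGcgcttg
Nr4a3, chr4:48045086-48045109, plus strand, 219 to 196 bases before the start: ccatgtCGTCAcatTGACGtctcg
Egr2, chr10:67537791-67537820, plus strand, 78 to 49 bases before the start: ctcagtCCATATATGGgcagcgaCGTCAcg
Zfp36, chr7:28379274-28379336, minus strand, 108 to 46 bases before the start: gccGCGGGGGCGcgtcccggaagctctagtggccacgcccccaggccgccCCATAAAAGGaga
Creb1, chr1:64532729-64532758, plus strand, 75 to 46 bases before the start: cagtagcGCGGGGGCGgggcctgtcgagcg
A match of letters is a description of the sequence and was not tested as a binding site.

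Levels are given as log2(intensity + 16) after quantile normalization, a scale whose floor is 4, and every change is a difference of group means on that scale with its standard error (SE). Among 12 measured granulosa markers, the mean level was 12.44 to 12.78 on the 9 arrays of the other groups and 11.72 to 11.98 on the bERKO hCG arrays; Cyp19a1 and Lhcgr had no one-gene probe set. Esr2 averaged 9.56 in WT and 8.32 in bERKO after PMSG (change -1.24, adjusted p = 0.307 in limma), and 8.99 and 8.33 after hCG (-0.66, adjusted p = 0.397). The genotype difference of Esr2 did not pass the test, and whether its probe set lies in the deleted part was not known. The Gapdh 3′ to 5′ ratio, a measure of how complete the amplified RNA was, stood at 32.16 for WT hCG replicate 1 and 23.74 for bERKO PMSG replicate 3, against 4.72 to 11.19 on the other 10 arrays. Values of the 10 genes that rest on WT hCG replicate 1 are therefore given with and without it.

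After hCG, 8 of the 10 genes rose in bERKO granulosa cells and 2, Nr4a1 and Egr1, rose in WT cells. A gene counted as changed when its adjusted p was under 0.05 in limma, a linear model with moderated variances, with Benjamini-Hochberg adjustment over all genes. By the same rule 7.05% of all genes were called higher in bERKO (18.9% in either direction) and 0.731% in WT (2.08% in either direction). The median change over the 10 genes was 3.88 in bERKO, where the median of all genes was -0.19, and 1.84 in WT, where it was -0.08. All 3 hCG arrays lay above all 3 PMSG arrays for 9 of 10 genes in bERKO (13.3% of all genes) and for 4 of 10 in WT (8.79% of all genes). None of the 10 was separated in the other direction, as 22.9% of all genes were in bERKO and 15.2% in WT. The 8 calls in bERKO held in every alternative setting run and with any 1 array left out. On the same bERKO arrays the mean of 12 endothelial markers was 6.79 to 7.66 after hCG and 5.45 to 5.89 after PMSG, with 5 of 12 passing as higher, and that of 12 oocyte markers was 6.63 to 7.70 and 8.81 to 10.16, with 7 of 12 passing as lower. The mean of 15 stroma markers was 8.04 to 9.08 after hCG and 6.65 to 7.98 after PMSG, with 4 of 15 (Col1a2, Pdgfrb, Vim and Mgp) passing as higher. Theca markers averaged 8.86 to 9.02 and 6.96 to 7.65, and of 5 measured Cyp11a1, itself a gene responsive to LH, and Hhip passed as higher and Ptch1 as lower. Leukocyte markers averaged 5.81 to 6.69 and 5.36 to 6.08, and of 16 measured Cd52 and Lyz2 passed as higher and Cd3e as lower. Granulosa markers averaged 11.72 to 11.98 and 12.44 to 12.68, with 5 of 12 (Fshr, Foxl2, Inhbb, Amhr2 and Hsd17b1) passing as lower, where 11.9% of all genes were called lower. The part of these cells in the changes of the 10 genes was not tested. These are bulk captures, in which fewer cells of a type and less RNA per cell cannot be told apart. Heat shock and stress markers averaged 11.25 to 11.43 after hCG and 10.85 to 11.08 after PMSG in bERKO. In WT they averaged 11.28 to 11.45 and 10.80 to 11.03. Of 13 measured, Hsp90aa1 and Hsph1 passed as higher in both genotypes and Gadd45a in bERKO. The median change of this list was 0.02 in bERKO and 0.17 in WT. The part of stress in the changes of the 10 genes was not tested.

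**Figure D1:**
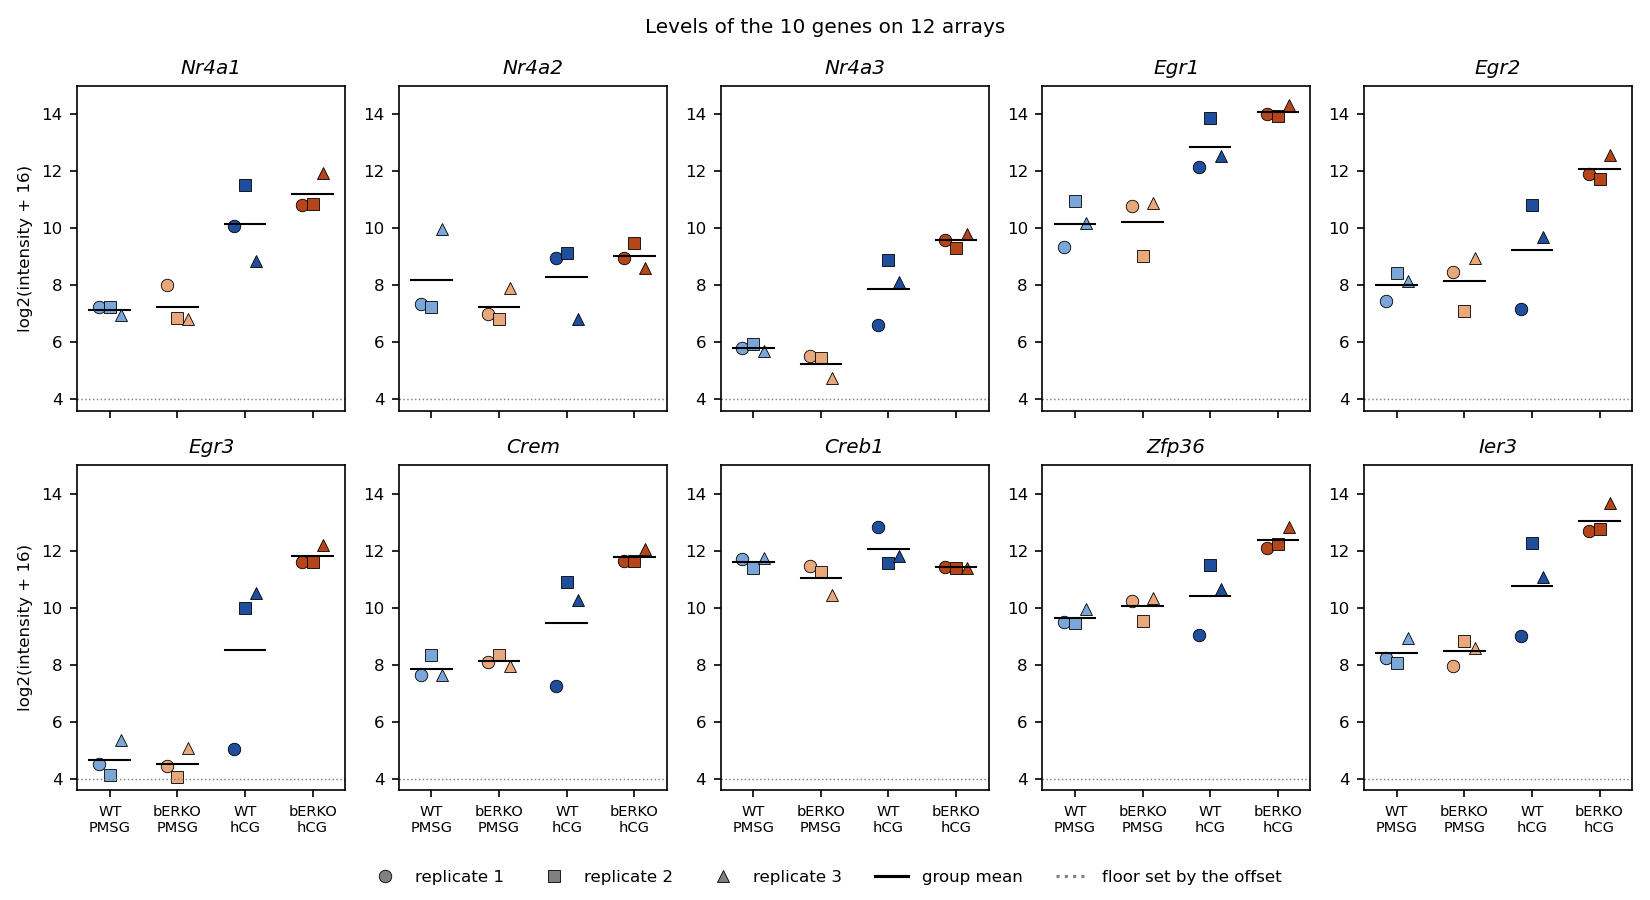
Levels of the 10 genes on each array, as log2(intensity + 16), with 1 panel per gene; symbols mark the replicate number, horizontal bars the mean of 3 arrays and the dotted line the floor of the scale at 4. The bERKO hCG arrays lie close together and high for 8 genes, while the WT hCG arrays are spread out and Creb1 stays near its PMSG level.

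Nr4a1 (Nur77) encodes a nuclear receptor that binds DNA as a monomer and acts without a known hormone. Its level was 7.24, 7.24 and 6.97 on the WT PMSG arrays and 10.09, 11.51 and 8.87 on the WT hCG arrays. In bERKO it was 8.01, 6.85 and 6.84 after PMSG and 10.81, 10.86 and 11.94 after hCG. Every hCG array stood above every PMSG array in both genotypes, and the lowest hCG value was that of WT replicate 3. Nr4a1 rose by 3.01 in WT (SE 0.59, 8.06-fold, adjusted p = 0.0275 in limma, n = 3 arrays a group) and by 3.97 in bERKO (SE 0.59, 15.7-fold, adjusted p = 0.00109).

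Nr4a3 (Nor1), a close relative with the same DNA-binding site, read 5.79, 5.94 and 5.70 in WT after PMSG and 6.61, 8.91 and 8.11 in WT after hCG. The bERKO arrays read 5.52, 5.44 and 4.74 after PMSG and 9.61, 9.32 and 9.82 after hCG. The hCG arrays did not overlap with the PMSG arrays in either genotype, and WT hCG replicate 1 was the lowest of the 6 hCG arrays. The rise in bERKO was 4.35 (SE 0.48, adjusted p = 2.70e-04 in limma), whereas the change of 2.07 in WT had an adjusted p of 0.0505. The bERKO PMSG values lie near the floor, with deposited intensities of 24.9, 27.1 and 5.75, so the size of the rise is uncertain: it ran from 2.89 with the mean over the probe sets of the gene to 5.11 with an offset of 1.

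Nr4a2 (Nurr1), best known from dopamine neurons, stood apart from its relatives. It measured 7.34, 7.23 and 9.97 on the WT PMSG arrays and 8.96, 9.14 and 6.84 on the WT hCG arrays. Its bERKO values were 7.01, 6.81 and 7.91 after PMSG and 8.97, 9.49 and 8.63 after hCG. Groups overlapped in WT, where the highest value was a PMSG array, and did not overlap in bERKO. That array, WT PMSG replicate 3, also had the highest mean of oocyte markers (8.43) and of stroma markers (8.27) among the 3 WT PMSG arrays, and the part of these cells in the Nr4a2 value was not tested. The change was 0.13 in WT (adjusted p = 0.958) and 1.79 in bERKO (SE 0.75, adjusted p = 0.124, both in limma). The 6 probe sets of Nr4a2 disagreed in bERKO, with changes from -0.34 to 3.26. Of them 3 passed as higher, where 8.02% of all single-gene probe sets did. The mean over the 6 probe sets gave a change of 1.35 (adjusted p = 0.0177 in limma). A fit of the 6 bERKO arrays alone gave 1.79 (adjusted p = 0.027 in limma).

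Egr1, a zinc finger activator that binds GC-rich sites and takes part in induction of LH beta in the pituitary, had values of 9.35, 10.96 and 10.20 in WT after PMSG and 12.17, 13.87 and 12.55 after hCG. In bERKO the values were 10.78, 9.05 and 10.88 after PMSG and 14.01, 13.94 and 14.35 after hCG. All 6 hCG arrays were above all 6 PMSG arrays. Egr1 rose by 2.70 in WT (SE 0.58, 6.48-fold, adjusted p = 0.0383 in limma) and by 3.86 in bERKO (SE 0.58, 14.5-fold, adjusted p = 0.00116).

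Egr2 (Krox20), a factor that also directs myelination, lay at 7.44, 8.44 and 8.15 in WT after PMSG and at 7.16, 10.83 and 9.71 after hCG. The bERKO arrays gave 8.46, 7.09 and 8.96 after PMSG and 11.92, 11.74 and 12.59 after hCG. Groups overlapped in WT because replicate 1 after hCG was below every WT PMSG array, and they were separate in bERKO. Egr2 rose in bERKO by 3.91 (SE 0.78, 15-fold, adjusted p = 0.00533 in limma). Both of its probe sets passed there with changes of 3.91 and 3.99 (8.02% of all single-gene probe sets were called higher). Its change in WT was 1.22 (SE 0.78, adjusted p = 0.476).

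Egr3, which shares its DNA site with Egr1, was near the floor before hCG on the probe set used. It read 4.52, 4.12 and 5.34 in WT and 4.46, 4.05 and 5.06 in bERKO after PMSG. After hCG it read 5.03, 9.98 and 10.53 in WT and 11.59, 11.61 and 12.21 in bERKO. Replicate 1 of the WT hCG group stayed within the PMSG range, and the other 5 hCG arrays were far above it. The rise in bERKO was 7.28 (SE 1.09, adjusted p = 0.00113 in limma), the 12th largest rise of all genes, and the change in WT was 3.86 (SE 1.09, adjusted p = 0.094). Because the PMSG values sit at the floor, the size of the rise in bERKO depends on the offset and was 9.25 with an offset of 1 and 5.66 with an offset of 64. A second probe set of Egr3 changed by only 0.84 in bERKO and 0.80 in WT and did not pass. On the PMSG arrays it read 6.29 to 6.99, above the floor. Means over the 12 arrays were 7.38 for the probe set used and 7.24 for the second. The first was thus chosen through its hCG values, and the size and rank of the rise rest on that choice.

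Crem encodes activators and, from an internal promoter, the inducible repressor ICER, so its probe sets can read different transcripts. The brightest one gave 7.62, 8.33 and 7.63 in WT after PMSG and 7.26, 10.90 and 10.27 after hCG. In bERKO it gave 8.10, 8.35 and 7.96 after PMSG and 11.63, 11.62 and 12.07 after hCG. WT replicate 1 after hCG was the lowest of all 12 arrays, while the 3 bERKO hCG arrays were the highest. Crem rose in bERKO by 3.63 (SE 0.71, 12.4-fold, adjusted p = 0.00488 in limma), and 3 of its 4 probe sets passed there (8.02% of all single-gene probe sets were called higher); the WT change was 1.61 (SE 0.71, adjusted p = 0.273).

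Creb1, the cAMP response factor that is controlled mainly by phosphorylation of its protein, did not pass in either genotype. Its level was 11.71, 11.39 and 11.74 in WT after PMSG and 12.82, 11.55 and 11.82 after hCG. In bERKO it was 11.45, 11.24 and 10.44 after PMSG and 11.44, 11.40 and 11.39 after hCG. The groups overlapped in both genotypes, and the highest value was that of WT hCG replicate 1. The change was 0.45 in WT (95% interval -0.34 to 1.24, adjusted p = 0.593) and 0.36 in bERKO (-0.43 to 1.15, adjusted p = 0.536 in limma), and none of its 6 probe sets passed in either.

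Zfp36 (tristetraprolin), which binds AU-rich elements and speeds decay of inflammatory and early response mRNAs, had levels of 9.48, 9.46 and 9.95 in WT after PMSG and 9.03, 11.50 and 10.67 after hCG. In bERKO they were 10.25, 9.52 and 10.35 after PMSG and 12.09, 12.22 and 12.82 after hCG. Replicate 1 of the WT hCG group was again below all WT PMSG arrays. Zfp36 rose by 2.34 in bERKO (SE 0.52, 5.05-fold, adjusted p = 0.00964 in limma), and its WT change was 0.77 (SE 0.52, adjusted p = 0.511).

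Ier3, a stress-inducible regulator of cell survival, measured 8.24, 8.05 and 8.94 in WT after PMSG and 9.0, 12.27 and 11.06 after hCG. In bERKO it measured 7.96, 8.83 and 8.60 after PMSG and 12.70, 12.75 and 13.66 after hCG. The groups did not overlap in either genotype, although WT hCG replicate 1 exceeded the highest WT PMSG array by little. Ier3 rose by 4.58 in bERKO (SE 0.66, 23.8-fold, adjusted p = 9.57e-04 in limma) and changed by 2.37 in WT, which missed the threshold (SE 0.66, adjusted p = 0.0905).

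**Figure D2:**
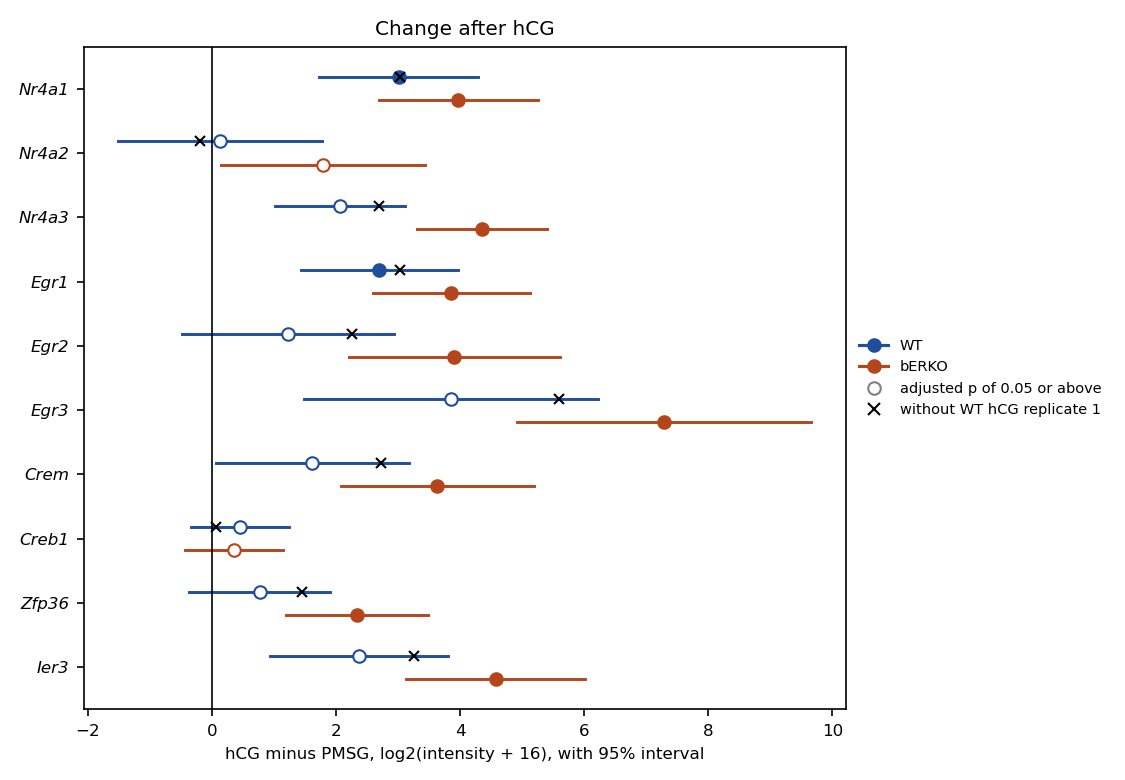
Change after hCG (hCG minus PMSG, in log2 units) for each gene in WT (blue) and bERKO (red), with unadjusted 95% intervals; filled circles passed the limma test and crosses give the WT change without WT hCG replicate 1. In bERKO 8 genes are filled, in WT only Nr4a1 and Egr1.

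The WT calls depended on single arrays. WT hCG replicate 1 was the lowest of the 3 WT hCG arrays for 7 of the 10 genes, and it exceeded all 6 PMSG arrays for 5 of them, namely Nr4a1, Nr4a3, Egr1, Creb1 and Ier3 (20.1% of all genes did so on that array). WT hCG replicate 2 exceeded all 6 for 8 genes (13.9% of all genes), replicate 3 for 9 (12.8%), and each bERKO hCG array for 8 (17.5% to 18%). On replicate 1 Nr4a1 stood 2.94 and Egr1 2.0 above the WT PMSG mean, whereas Crem and Zfp36 each stood at -0.60 and Egr2 at -0.85. Without replicate 1, 6 genes passed in WT (1.1% of all genes were called higher): Nr4a1 with 3.04 (adjusted p = 0.0478), Egr1 with 3.04 (0.0364), Nr4a3 with 2.70 (0.00401), Egr3 with 5.60 (1.94e-04), Crem with 2.72 (0.0033) and Ier3 with 3.25 (0.00687, all in limma). Egr2 and Zfp36 then changed by 2.26 (adjusted p = 0.0661) and 1.45 (0.0756), still short of the threshold. The calls of Nr4a1 and Egr1 were both lost without any 1 of the 3 WT PMSG arrays or without WT hCG replicate 2, and that of Egr1 also without WT hCG replicate 3 or any 1 of the 3 bERKO hCG arrays. Nr4a3 passed in WT without bERKO PMSG replicate 3. Both WT calls were also lost with an offset of 1, where Nr4a1 had an adjusted p of 0.0573 and Egr1 of 0.0761, and in a fit of the 6 WT arrays alone.

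**Figure D3:**
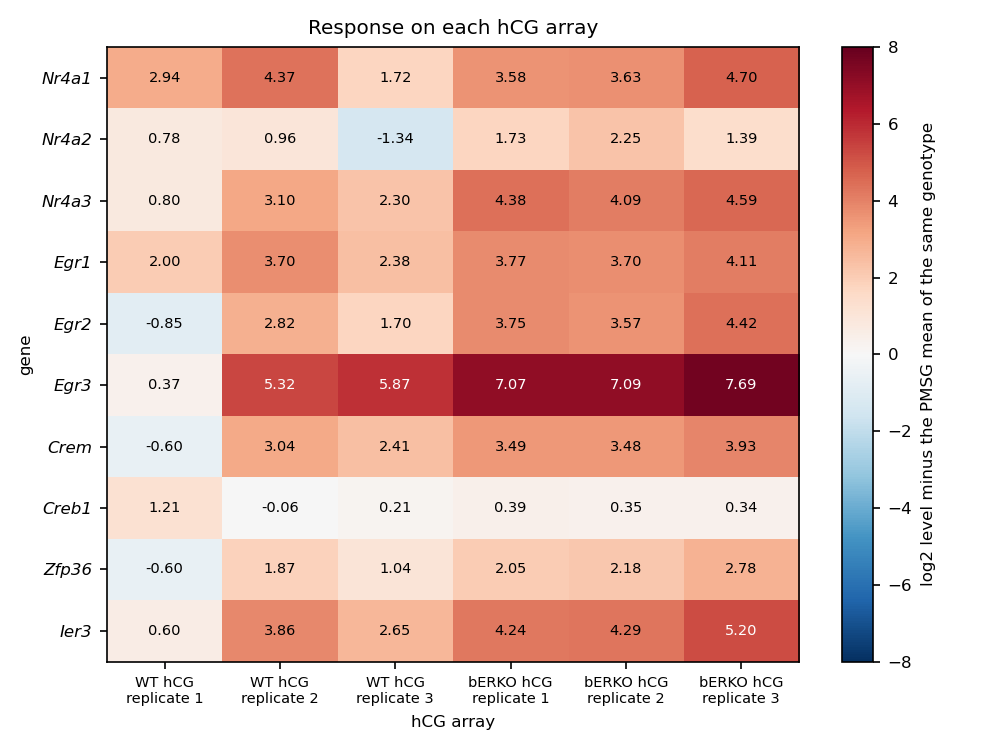
Level on each hCG array minus the mean of the 3 PMSG arrays of the same genotype, in log2 units, for the 10 genes; red is above and blue below that mean. The column of WT hCG replicate 1 is pale or blue for most genes except Nr4a1 and Egr1, while the 3 bERKO columns resemble each other.

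Before hCG, the level of these genes was compared between the genotypes. None of the 10 passed between bERKO and WT after PMSG in limma, none had an unadjusted p under 0.05 (1733 of all genes did), and 0.011% of all genes were called. Changes ran from -0.94 for Nr4a2 to 0.41 for Zfp36, with a median of 0.06 beside 0.04 for all genes. Only Nr4a3 had groups that did not overlap, with the 3 bERKO arrays lower (change -0.57, adjusted p above the threshold). Of all genes 6.58% were separated in that direction and 8.14% in the other, in which none of the 10 was. The 95% intervals were wide, from -1.28 to 1.83 for Crem and from -2.51 to 2.24 for Egr3. On the same arrays the mean of 12 oocyte markers was 8.81 to 10.16 in bERKO and 5.73 to 8.43 in WT. All 12 had a higher mean in bERKO (median change 2.41) and none passed. Theca markers averaged 6.96 to 7.65 in bERKO and 7.65 to 8.53 in WT, yet 3 of 5 had a higher mean in bERKO (median change 0.24). None of the 5 passed, and Cyp11a1 averaged 7.98 in bERKO and 11.69 in WT. Endothelial, stroma, leukocyte and granulosa means overlapped. The part of these cells in the levels of the 10 genes was not tested.

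After hCG, 9 of the 10 genes had a higher mean in bERKO than in WT, yet none passed in limma, where 3.09% of all genes were called. The unadjusted p was under 0.05 for 6 genes (17.5% of all genes), and the median difference was 1.84 beside -0.06 for all genes. All 3 bERKO arrays were above all 3 WT arrays for 7 genes (11.4% of all genes), that is Nr4a3, Egr1, Egr2, Egr3, Crem, Zfp36 and Ier3, and all 3 were below for Creb1 (13.2% of all genes). The smallest adjusted p belonged to Zfp36 (difference 1.97, SE 0.52, adjusted p = 0.0656) and Egr2 (2.85, SE 0.78, adjusted p = 0.0746). Nr4a3 differed by 1.71 (adjusted p = 0.0804), Ier3 by 2.26 (0.0914), Crem by 2.30 (0.109) and Egr3 by 3.29 (0.13). The second probe set of Egr3 differed by 0.22. Egr1 and Nr4a1, the 2 genes that rose in WT, differed by 1.23 (95% interval -0.03 to 2.49, adjusted p = 0.303) and 1.05 (-0.23 to 2.33, adjusted p = 0.401). This comparison uses the same hCG arrays as the responses above and is no separate evidence for them.

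These genotype differences were smaller for 9 of the 10 genes when WT hCG replicate 1 was left out. Without it none passed either, 6 still had an unadjusted p under 0.05, and the differences were 1.55 for Egr3, 1.81 for Egr2, 1.19 for Crem, 1.38 for Ier3, 1.29 for Zfp36 and 1.07 for Nr4a3, with adjusted p from 0.129 to 0.218 in limma. Without WT hCG replicate 2, the array with the highest WT value for 8 genes, 4 passed, where 1.69% of all genes were called. The 4 were Nr4a3, Egr2, Zfp36 and Ier3. With each array centred on its median 3 passed (Egr2, Zfp36 and Ier3, with 2.94% of all genes called). Among genes with a mean of at least 7 there were 3 (Nr4a3, Egr2 and Zfp36, with 7.82% of such genes called). Nr4a3 met this filter only through its hCG arrays, as its PMSG means were 5.81 in WT and 5.24 in bERKO. An offset of 64 gave 2 (Nr4a3 and Zfp36, with 4.85% of all genes called). With the mean over the probe sets of a gene Crem alone passed (1.86, adjusted p = 0.0162 in limma, with 4% of all genes called). Markers of other cells differed between the same arrays. The mean of 12 endothelial markers was 6.79 to 7.66 on the bERKO hCG arrays and 5.51 to 5.73 on the WT hCG arrays. Of these 12, 4 (Cdh5, Kdr, Flt1 and Emcn) passed as higher, where 1.55% of all genes were called higher. The mean of 15 stroma markers was 8.04 to 9.08 against 6.94 to 7.53 and that of 16 leukocyte markers 5.81 to 6.69 against 5.44 to 5.59, with none of either list passing. Oocyte markers averaged 6.63 to 7.70 against 5.89 to 6.59, with 11 of 12 higher in bERKO and none passing. Theca markers averaged 8.86 to 9.02 against 7.78 to 8.69, with only 2 of 5 higher in bERKO and none passing. Granulosa markers were 11.72 to 11.98 against 12.53 to 12.70, and 3 of 12 (Fshr, Foxl2 and Inhbb) passed as lower (1.54% of all genes). No endothelial marker was under a level of 5 on all 3 bERKO hCG arrays; Cnn1 and Des of the stroma list, Cd14 and Cd3e of the leukocyte list and Gli1 of the theca list were. The part of these cells in the values of the 10 genes was not tested.

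**Figure D4:**
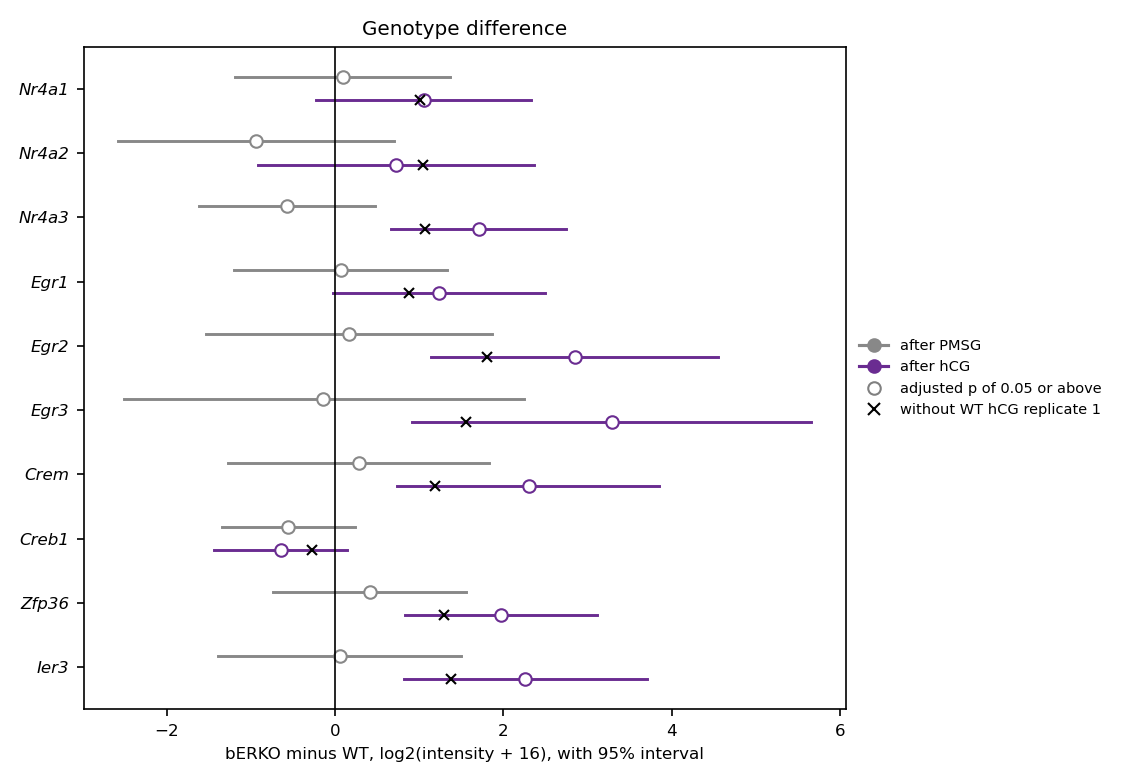
Genotype difference (bERKO minus WT, in log2 units) after PMSG (grey) and after hCG (purple) with unadjusted 95% intervals; open circles did not pass the limma test and crosses give the hCG difference without WT hCG replicate 1. All circles are open, the grey ones scatter around 0, and every cross but that of Nr4a2 lies nearer to 0 than its circle.

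Whether hCG acted more strongly in bERKO was tested directly as the difference between the 2 responses. None of the 10 genes passed in limma, nor in any alternative setting; 1.31% of all genes did, 0.676% with a larger and 0.638% with a smaller value in bERKO, and 4 of the 10 had an unadjusted p under 0.05 (15.3% of all genes). The response in bERKO exceeded that in WT by 2.28 for Nr4a3 (95% interval 0.80 to 3.76, adjusted p = 0.128), 3.43 for Egr3 (0.07 to 6.78), 2.69 for Egr2 (0.28 to 5.10) and 2.21 for Ier3 (0.17 to 4.25). On the second probe set of Egr3 the responses differed by 0.05. For Nr4a1 the difference was 0.96 (-0.85 to 2.77) and for Egr1 1.16 (-0.63 to 2.95), and both intervals include 0. Without WT hCG replicate 1 the median difference over the 10 genes was 1.12 in place of 1.84, none passed, and 2 genes, Nr4a3 and Egr3, had an unadjusted p under 0.05. The differences were then 1.65 for Nr4a3 (0.64 to 2.66, adjusted p = 0.144 in limma), 1.68 for Egr3 (0.41 to 2.95), 1.65 for Egr2 (-0.04 to 3.34) and 1.32 for Ier3 (-0.08 to 2.72). They were 0.93 for Nr4a1 and 0.81 for Egr1.

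One further Crem probe set gave a different picture, and it is singled out here after its values were seen. It read 6.64, 5.91 and 5.73 in WT after PMSG and 6.56, 6.29 and 6.63 after hCG, with replicate 1 in the middle of the WT hCG group. In bERKO it read 4.99, 5.42 and 6.28 after PMSG and 8.68, 8.61 and 8.33 after hCG. The groups overlapped in WT and were wide apart in bERKO. Its change was 0.40 in WT (adjusted p = 0.669) and 2.98 in bERKO (adjusted p = 5.20e-04), and the responses differed by 2.58 (SE 0.51, adjusted p = 0.044 in limma over 34945 probe sets, of which 0.77% passed). This was the 1 probe set of 27 that passed for the difference; the call was lost in 13 of 19 alternatives, whose adjusted p ran from 0.0128 to 0.111 and whose difference ran from 1.88 to 3.02. Without WT hCG replicate 1 the difference of the responses was 2.61 (adjusted p = 0.0852 in limma). After hCG this probe set was also higher in bERKO than in WT, by 2.05 (adjusted p = 0.0188 in limma). Of all single-gene probe sets 2.24% were called there. That call held in 14 of 19 alternatives and was lost without WT hCG replicate 1 (2.08, adjusted p = 0.0596 in limma). The other Crem probe sets did not pass for the difference of the responses, which was 2.02 for the brightest, 0.70 for the next and -0.55. Means over the 12 arrays were 9.31 for the brightest, 9.24 for the next and 6.67 for the probe set singled out. The next brightest changed by 2.82 in WT and 3.52 in bERKO. Which Crem transcript the probe set singled out reads was not known.

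**Figure D5:**
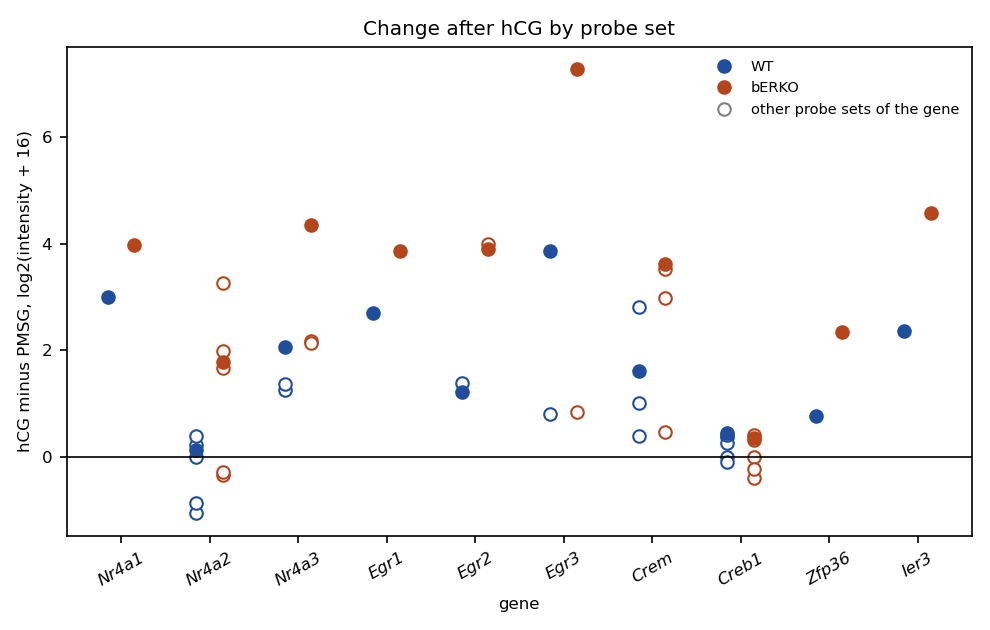
Change after hCG (in log2 units) of each single-gene probe set of the 10 genes in WT (blue) and bERKO (red); filled circles are the probe set used for the gene and open circles the others. Probe sets of Egr2 and Creb1 lie close together, while those of Nr4a2, Egr3 and Crem are spread.

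Other immediate early genes moved in the same direction in bERKO. Of 33 measured, 16 rose after hCG in bERKO and none fell, where 7.05% of all genes were called higher and 11.9% lower. In WT 1 rose, where 0.731% of all genes were called higher. It was Sik1, a kinase that restrains CREB coactivators (2.07, adjusted p = 0.0374 in limma). The 3 with the smallest p in bERKO were Jun, a subunit of the AP-1 factor (3.13), Maff, a small MAF factor (3.77), and Zfp36l1, a relative of Zfp36 (2.24). Between genotypes after hCG, Fosl1 (2.69, adjusted p = 0.0266) and Fosb (2.17, 0.0415), both AP-1 subunits, and Zfp36l1 (1.39, 0.0355, all in limma) were higher in bERKO. Of all genes 1.55% were called higher there. The count in WT was 0 to 4 and that between genotypes 0 to 4 when 1 array was left out; without WT hCG replicate 1 they were 4 and 0. The median change of the list was 1.42 in bERKO and 0.91 in WT, beside -0.19 and -0.08 for all genes.

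The CREB family did not move as 1 group. Of 16 measured members and coactivators, 5 rose and 4 fell in bERKO after hCG (7.05% and 11.9% of all genes), and the median change was -0.04. Creb5, a CREB-related factor, rose by 5.50, Creb3l1, a membrane-bound factor of the secretory pathway, by 4.02 and Creb3 by 1.11. Creb3l4 fell by 1.96, Crebl2 fell by 1.99 and the coactivator Crtc3 fell by 1.42. In WT Creb3l1 rose by 2.90 (adjusted p = 0.017) and Creb3l4 fell by 1.59 (0.0446), and between genotypes after hCG Creb3l2 alone passed, lower in bERKO (-1.14, adjusted p = 0.0253 in limma; 1.54% of all genes were called lower). Left-out arrays gave 0 to 3 calls in WT and 4 to 9 in bERKO, where there were 4 without bERKO PMSG replicate 3 or without bERKO hCG replicate 2 or 3; the genotype call of Creb3l2 was lost without WT hCG replicate 1 or bERKO hCG replicate 1 or 2.

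Of 10 measured partners and corepressors of the EGR and NR4A factors, 1 rose and 1 fell in bERKO after hCG, a share near the 18.9% of all genes called there. Nab2, a corepressor that binds EGR proteins and is itself an EGR target, rose in bERKO by 2.18 (adjusted p = 7.95e-04) and was higher in bERKO than in WT after hCG by 1.63 (adjusted p = 0.019 in limma). The genotype call of Nab2 was lost without WT hCG replicate 1 or any 1 of the 3 bERKO hCG arrays. Rxrb, a retinoid X receptor of the family that pairs with NR4A proteins, fell by 2.01 in bERKO (adjusted p = 0.002). None of the 10 passed in WT.

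Genes known to respond to LH or cAMP in granulosa cells were also measured. Of 19, 15 rose in bERKO, where 7.05% of all genes were called higher. In WT 6 rose and 1 fell, where 0.731% of all genes were called higher and 1.35% lower. The median changes were 4.99 in bERKO and 2.76 in WT, beside -0.19 and -0.08 for all genes. Ereg, an EGF-like ligand of cumulus expansion, rose by 6.78 in WT and 9.33 in bERKO, and Ptgs2, the inducible prostaglandin synthase, by 6.75 and 9.40. Pde4d, a cAMP phosphodiesterase, rose by 2.52 in WT and 3.47 in bERKO. Akr1c18, which inactivates progesterone, fell by 2.65 in WT. Pde4b, a second cAMP phosphodiesterase, was higher in bERKO than in WT after hCG by 2.54 (adjusted p = 0.00785), and its responses differed by 2.77 (adjusted p = 0.0345 in limma). The responses of Akr1c18 also differed, by 3.17, with an adjusted p just under the threshold. Of all genes 1.55% were called higher between genotypes after hCG, and 1.31% passed for the difference of the responses. With 1 array left out the WT count ran from 1 (without WT PMSG replicate 1 or 2) to 13 (without WT hCG replicate 1), and the count of 2 for the difference fell to 0 without any 1 of 8 arrays.

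The genes with patterns most like those of Nr4a1, Egr1 and Crem were named by the root mean square difference over the 12 arrays, after each gene was centred, among 770 genes with a mean of at least 8 and an SD of at least 1. For Nr4a1 they were Klf4 (0.59 log2 units), Plk2 (0.60) and Bhlhe40 (0.69). For Egr1 they were Cd24a (0.51), Rragd (0.60) and Runx1 (0.62). For Crem they were Vcpkmt (0.34), Slc23a2 (0.41) and Ier5 (0.44). Within the 10 genes, Nr4a1 lay closer to Egr1 (0.65) than to Nr4a3 (0.73) or Nr4a2 (1.63), and Crem lay 0.55 from Egr2. These distances describe the 12 arrays, which share the arrays described above, and carry no test.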

How the data were processed

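Values were linear intensities, 1 per probe set of an Affymetrix mouse array, which the authors had deposited with every array at a 2% trimmed mean of 500.0 (software: not given in the sources used here). Per the labels, 25 ng of PicoPure-extracted RNA was amplified with NuGEN kits. Of 45101 probe sets, 64 controls were left out, and 34945 of the rest named 1 gene. Values were quantile normalized and taken as log2(intensity + 16), which understates changes of dim genes. Each of 18193 genes was read from its brightest one-gene probe set. Group means over 12 arrays were fitted with limma 3.58.1 in R 4.3.3, with 5 contrasts, two-sided tests and Benjamini-Hochberg adjustment. P-values measure the spread between arrays, since the animals behind them are not given.

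The 10 genes, the 4 pathway lists and the 7 marker lists were chosen with earlier results of these data known. Named genes were the 10 members, the 3 genes with the smallest p per list and direction among those passing, the 3 genes nearest to Nr4a1, Egr1 and Crem, and Esr2. Marker genes that passed and the second Crem probe set were named after their values were seen. The fit was tested on simulated data. No 2 arrays held identical values (highest correlation 0.971). Alternatives were other scalings, offsets of 1 and 64, a filter on dim genes, the mean over probe sets, array weights, fits of 6 arrays, left-out arrays and a replicate block. Plots and motif searches used Python 3.11.15 with matplotlib 3.10.9.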

Additional observations from a re-analysis of the deposited data

Results flagged for a closer look

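One Crem probe set had responses to hCG that differed between the genotypes by the test of the difference itself. Its response in bERKO exceeded that in WT by 2.58 on the log2 scale (SE 0.51, adjusted p = 0.044 in limma over 34945 probe sets), with changes of 0.40 in WT and 2.98 in bERKO. All 3 bERKO hCG arrays, between 8.33 and 8.68, lay above all other 9 arrays, which ran from 4.99 to 6.64. It was chosen after its values were seen, and leaving out most single arrays ended the call. The other Crem probe sets, of which 2 were brighter, did not pass, with differences of 2.02, 0.70 and -0.55.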

How the results depend on the processing

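Counts of calls that moved by over 1.5 times are given here by setting, beside the main counts. The main counts were 0 of the 10 genes, 2 of all genes and none of the lists for the genotype difference after PMSG. They were 0 of the 10 genes, 562 of all genes, 3 early genes, 1 CREB gene, 1 partner and 1 LH gene for the genotype difference after hCG. They were 2, 378, 1, 2, 0 and 7 in that order for the WT response, 8, 3447, 16, 9, 2 and 15 for the bERKO response, and 0, 239, 0, 0, 0 and 2 for the response difference. Early genes, CREB genes, partners and LH genes are the lists of other immediate early genes, CREB family and coactivators, partners of EGR and NR4A, and genes responsive to LH or cAMP. With the deposited values and no further normalization there were 7 of all genes for the genotype difference after PMSG, and 0 CREB genes and 0 partners for the genotype difference after hCG. The same setting gave 1 of the 10 genes, 233 of all genes and 1 CREB gene for the WT response, and 1 early gene for the response difference. Signs turned for Nr4a1 (-0.16, genotype difference after PMSG) and Ier3 (-0.10, genotype difference after PMSG). With each array centred on its median there were 5 of all genes for the genotype difference after PMSG, and 3 of the 10 genes, 5 early genes, 0 CREB genes and 3 LH genes for the genotype difference after hCG. Further counts there were 0 early genes and 1 partner for the WT response, and 4 partners for the bERKO response. Signs turned for Egr3 (0.02, genotype difference after PMSG). With an offset of 1 there were 0 of all genes for the genotype difference after PMSG, and 225 of all genes, 0 early genes and 0 CREB genes for the genotype difference after hCG. This setting also gave 0 of the 10 genes, 140 of all genes, 0 early genes, 0 CREB genes and 2 LH genes for the WT response, and 95 of all genes and 0 LH genes for the response difference. With an offset of 64 there were 12 of all genes for the genotype difference after PMSG, and 2 of the 10 genes, 882 of all genes, 6 early genes, 2 CREB genes and 2 LH genes for the genotype difference after hCG. Added to these were 870 of all genes, 4 early genes and 1 CREB gene for the WT response, and 454 of all genes, 2 early genes, 1 CREB gene and 1 partner for the response difference. Among genes with a mean of at least 7 there were 3 of the 10 genes and 3 CREB genes for the genotype difference after hCG, and 5 of the 10 genes, 910 of all genes, 5 early genes, 0 CREB genes, 2 partners and 11 LH genes for the WT response. The same setting gave 4 CREB genes for the bERKO response, and 377 of all genes, 2 early genes and 1 CREB gene for the response difference. Of the 10 genes, Nr4a3 and Egr3 met this filter only through their hCG arrays, with PMSG group means from 4.52 to 5.81. Calls of these genes under the filter are therefore no independent check. With the mean over the probe sets of a gene there were 1 of all genes for the genotype difference after PMSG, and 1 of the 10 genes, 5 early genes, 2 CREB genes and 2 LH genes for the genotype difference after hCG. Further counts there were 2 early genes and 1 LH gene for the response difference. Signs turned for Nr4a3 (0.03, genotype difference after PMSG), Egr3 (0.02, genotype difference after PMSG) and Nr4a2 (-0.20, WT response). With array quality weights there were 1239 of all genes, 6 early genes, 3 CREB genes and 2 LH genes for the genotype difference after hCG, and 6 of the 10 genes, 1598 of all genes, 10 early genes, 2 partners and 14 LH genes for the WT response. This setting also gave 420 of all genes and 1 early gene for the response difference. Signs turned for Egr1 (-0.15, genotype difference after PMSG), Egr2 (-0.08, genotype difference after PMSG) and Creb1 (0.06, response difference). In fits of the 6 arrays compared there were 1 of all genes for the genotype difference after PMSG, and 219 of all genes, 0 early genes, 0 CREB genes and 0 LH genes for the genotype difference after hCG. Added to these were 0 of the 10 genes, 31 of all genes, 0 early genes, 0 CREB genes and 0 LH genes for the WT response. Without WT hCG replicate 1 and bERKO PMSG replicate 3 together there were 7 of all genes for the genotype difference after PMSG, and 259 of all genes, 0 early genes, 0 CREB genes and 0 partners for the genotype difference after hCG. The same setting gave 7 of the 10 genes, 835 of all genes, 6 early genes and 14 LH genes for the WT response, and 120 of all genes for the response difference. Signs turned for Egr1 (-0.25, genotype difference after PMSG), Egr2 (-0.23, genotype difference after PMSG), Ier3 (-0.01, genotype difference after PMSG) and Nr4a2 (-0.19, WT response). No gene whose sign turned had passed in that comparison. A fit of 6 arrays cannot give the response difference, and the filter on dim genes and fits with fewer arrays test fewer genes or samples; for the other settings the cause was not tested.

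With 1 array left out in turn, counts ran as follows. The genotype difference after PMSG called 0 to 26 of all genes. There the sign of Nr4a1 (-0.30 to 0.28), Egr1 (-0.34 to 0.66), Egr2 (-0.23 to 0.70), Egr3 (-0.41 to 0.20) and Ier3 (-0.13 to 0.32) turned. The genotype difference after hCG called 0 to 4 of the 10 genes, 141 to 684 of all genes, 0 to 4 early genes, 0 to 2 CREB genes, 0 to 1 partners and 1 to 2 LH genes. There the sign of Nr4a2 (-0.02 to 1.13) turned. The WT response called 0 to 6 of the 10 genes, 49 to 580 of all genes, 0 to 4 early genes, 0 to 3 CREB genes and 1 to 13 LH genes. There the sign of Nr4a2 (-0.34 to 1.03) turned. The bERKO response called 4 to 9 CREB genes and 2 to 4 partners. The response difference called 81 to 408 of all genes, 0 to 1 early gene, 0 to 1 CREB gene and 0 to 2 LH genes. There the sign of Creb1 (-0.39 to 0.29) turned. The bERKO response kept 8 of the 10 genes in all 12 of these fits.

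Same-numbered arrays of different groups did not deviate together: 18 pairs had correlations of deviations from -0.08 to 0.12 and 36 other pairs -0.12 to 0.07, so the numbers were not taken to pair the arrays. With the replicate number as a block there were 0 CREB genes for the genotype difference after hCG, and 0 of the 10 genes, 148 of all genes, 0 early genes, 1 CREB gene and 4 LH genes for the WT response. Further counts there were 129 of all genes and 1 LH gene for the response difference. Among the 10 genes the block ended the WT calls of Nr4a1 (adjusted p = 0.057) and Egr1 (adjusted p = 0.0708) in limma and moved no other count.

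Scaling also moved the share of calls that were higher. For the genotype difference after hCG it was 50.2%, against 39.1% with the deposited values and 66.5% with median centring. For the WT response it was 35.2% against 43.3% and 18.1%, and for the bERKO response 37.2% against 43% and 24.3%. Median centring moved the median change of all genes from -0.19 to -0.41 in bERKO after hCG and from 0.04 to 0.24 between genotypes after PMSG, while 8 of the 10 genes still passed as higher in bERKO. Precision is limited by 3 arrays a group and, for Egr3 and Nr4a3 after PMSG, by signals near the floor. For the Crem probe set singled out, the difference of the responses passed in 6 of 19 alternatives, chosen after its values were seen, and its rise in bERKO passed in 19 of 19.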
